A study of Rattus norvegicus with 35 samples.

Results

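The rat liver genes followed here were 6 cytochrome P450s of families 2 and 3 that handle drugs and steroids, Cyp3a23-3a1, Cyp3a9, Cyp2b3, Cyp2c6v1, Cyp2c11 and Cyp2a1, and Por, the gene of their shared electron donor, NADPH-cytochrome P450 reductase. They were chosen by symbol. The 7 genes were read from 8 probe sets that carried a member's symbol alone, out of 31042 probe sets tested, of which 20826 had a single symbol and stood for 14217 genes. Por had 2 probe sets and the other genes 1 each, and for Por the probe set with the higher mean over the 35 arrays was the main one. A further probe set, annotated with both Cyp2b2 and Cyp2b1, is given as not gene specific, and no probe set was annotated with several Cyp3a symbols.

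The left liver lobe gave the RNA. The animals were male Harlan Sprague Dawley rats that were 7 weeks of age when dosing began, were gavaged daily for 5 days and were killed 1 day after the last dose. The compound was TBB (2-ethylhexyl-2,3,4,5-tetrabromobenzoate), a brominated ester used as a flame retardant. Vehicle rats received corn oil alone (n = 5 arrays), and treated rats received TBB in corn oil (n = 6 arrays at each dose), all on NTP-2000 diet. The daily dose was 0.05 mg/kg in the lowest group, then 0.55, 5.50 and 55 mg/kg, and 550 mg/kg in the highest. Values are log2 expression on Affymetrix 3' arrays, so a difference of 1 is a change by a factor of 2. Nothing in the labels ties each array to an animal of its own, so the p-values reflect the scatter among arrays, part of which may be technical. The number of arrays limits the precision.

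Microsomal P450s are heme enzymes that insert oxygen into lipophilic substrates, taking electrons from POR and in part from cytochrome b5. In rodent liver the nuclear receptors CAR (Nr1i3) and PXR (Nr1i2), each paired with RXR, switch on Cyp2b and Cyp3a genes when drugs or other foreign chemicals are present. Phenobarbital induction of Cyp2b1 and Cyp2b2 through CAR and pregnenolone 16-alpha-carbonitrile induction of Cyp3a genes through PXR are the textbook cases in the rat. Cyp2c11, by contrast, is known chiefly for its male-biased expression, set by the pattern of growth hormone release.

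The PXR and RXR pair is known to bind a direct repeat of a hormone-response half-site with 3 bases in between. Promoter windows from RefSeq (build GRCr8), reaching from 250 bases before to 50 bases after each gene's start, were found for 6 of the 7 genes, and Cyp2c6v1 had no entry. The exact repeat TGAACTNNNTGAACT, searched on both strands, occurred in 2 of 33469 such windows (0.00598%), those of Cyp3a23-3a1 and of Cyp3a2, a male-biased Cyp3a gene. The single half-site TGAACT, which is part of that repeat, occurred in 14.5% of windows. Looser forms of the repeat were not searched, so these shares describe exact letters only and are no test. The Cyp3a18 window, not shown here, lacked the exact repeat and held 2 half-sites. The 250 bases before the start are shown for Cyp3a23-3a1, Cyp3a2 and Cyp3a9, to set promoters with and without the exact repeat side by side. All are written 5' to 3' on the gene's strand, the minus strand of chromosome 12. Capitals mark the repeat in the first and second, and in the Cyp3a9 sequence the lone half-site, read there from the opposite strand.
Cyp3a23-3a1 (chr12:14398804-14399053): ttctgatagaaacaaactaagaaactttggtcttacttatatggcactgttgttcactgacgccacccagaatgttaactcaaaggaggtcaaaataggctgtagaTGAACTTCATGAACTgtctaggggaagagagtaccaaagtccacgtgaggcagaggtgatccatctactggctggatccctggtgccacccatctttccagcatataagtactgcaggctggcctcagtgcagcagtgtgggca
Cyp3a2 (chr12:14343858-14344107): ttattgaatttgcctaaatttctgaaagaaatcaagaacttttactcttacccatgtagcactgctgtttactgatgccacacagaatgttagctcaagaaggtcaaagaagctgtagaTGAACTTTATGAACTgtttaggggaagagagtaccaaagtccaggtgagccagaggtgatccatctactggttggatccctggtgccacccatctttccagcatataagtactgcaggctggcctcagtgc
Cyp3a9 (chr12:21960161-21960410): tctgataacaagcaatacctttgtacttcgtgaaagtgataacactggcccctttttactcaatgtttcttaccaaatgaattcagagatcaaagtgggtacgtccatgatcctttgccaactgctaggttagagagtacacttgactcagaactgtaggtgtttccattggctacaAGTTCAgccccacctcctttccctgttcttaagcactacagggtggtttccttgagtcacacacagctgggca
In the Cyp3a23-3a1 window the repeat lay at bases -144 to -130 from the start, and in the Cyp3a2 window at bases -131 to -117. The whole windows of these 2 genes were 89.1% identical over 285 aligned bases, against 69.2% over 266 bases for Cyp3a23-3a1 and Cyp3a9. The windows of Cyp2b1 and Cyp2b2, the pair that shares a probe set, were 97.2% identical, and those of Cyp2b1 and Cyp2b3 72.9%. A match of letters is a description of the sequence, not a binding site or a cause of any expression value.

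None of the 7 genes differed from vehicle past an adjusted p of 0.05 at any dose, in limma's moderated test over all probe sets. At 550 mg/kg the 7 differences ran from -0.61 to 0.23, with a median of -0.05, against a median of 0.002 over all 31042 probe sets. Of all probe sets, 0.499% were called at 550 mg/kg (155 probe sets), 0.00644% at 55 mg/kg and 0% at 5.50, 0.55 and 0.05 mg/kg. By unadjusted p under 0.05, 2 of the 7 genes passed at 550 mg/kg (Cyp3a23-3a1 and Cyp3a9), 1 at 0.05 mg/kg (Cyp3a9) and 0 at the other doses. The same unadjusted rule passed 8.67% of all probe sets at 550 mg/kg, 4.2% at 55, 4.95% at 5.50, 3.86% at 0.55 and 6.05% at 0.05 mg/kg. For 0 of the 7 genes did the range at any dose lie wholly outside the vehicle range. Over all probe sets the ranges did not overlap for 1.34% at 550 mg/kg, 0.345% at 55 and at 0.55, 0.264% at 5.50 and 0.454% at 0.05 mg/kg.

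The comparison of 550 with 55 mg/kg called 0 of the 7 genes, with 0.686% of all probe sets called, and the 1 gene with an unadjusted p under 0.05 was Cyp3a9, against 9.43% of all probe sets. The ranges at these 2 doses overlapped for each of the 7 genes and did not for 1.15% of all probe sets. A slope on dose rank, counting vehicle as 0 and each dose as 1 step, called 0 of 7, with 0.171% of all probe sets called. Its unadjusted p was under 0.05 for 2 genes, Cyp3a23-3a1 and Cyp2b3, and for 9.42% of all probe sets. A test for any difference among the 6 groups also called 0 of 7, with 0.741% of all probe sets called, and Cyp3a9 was the 1 gene with an unadjusted p under 0.05, against 8.32% of all probe sets. The dose comparisons share the vehicle arrays, so they are not independent of one another.

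**Figure D1:**
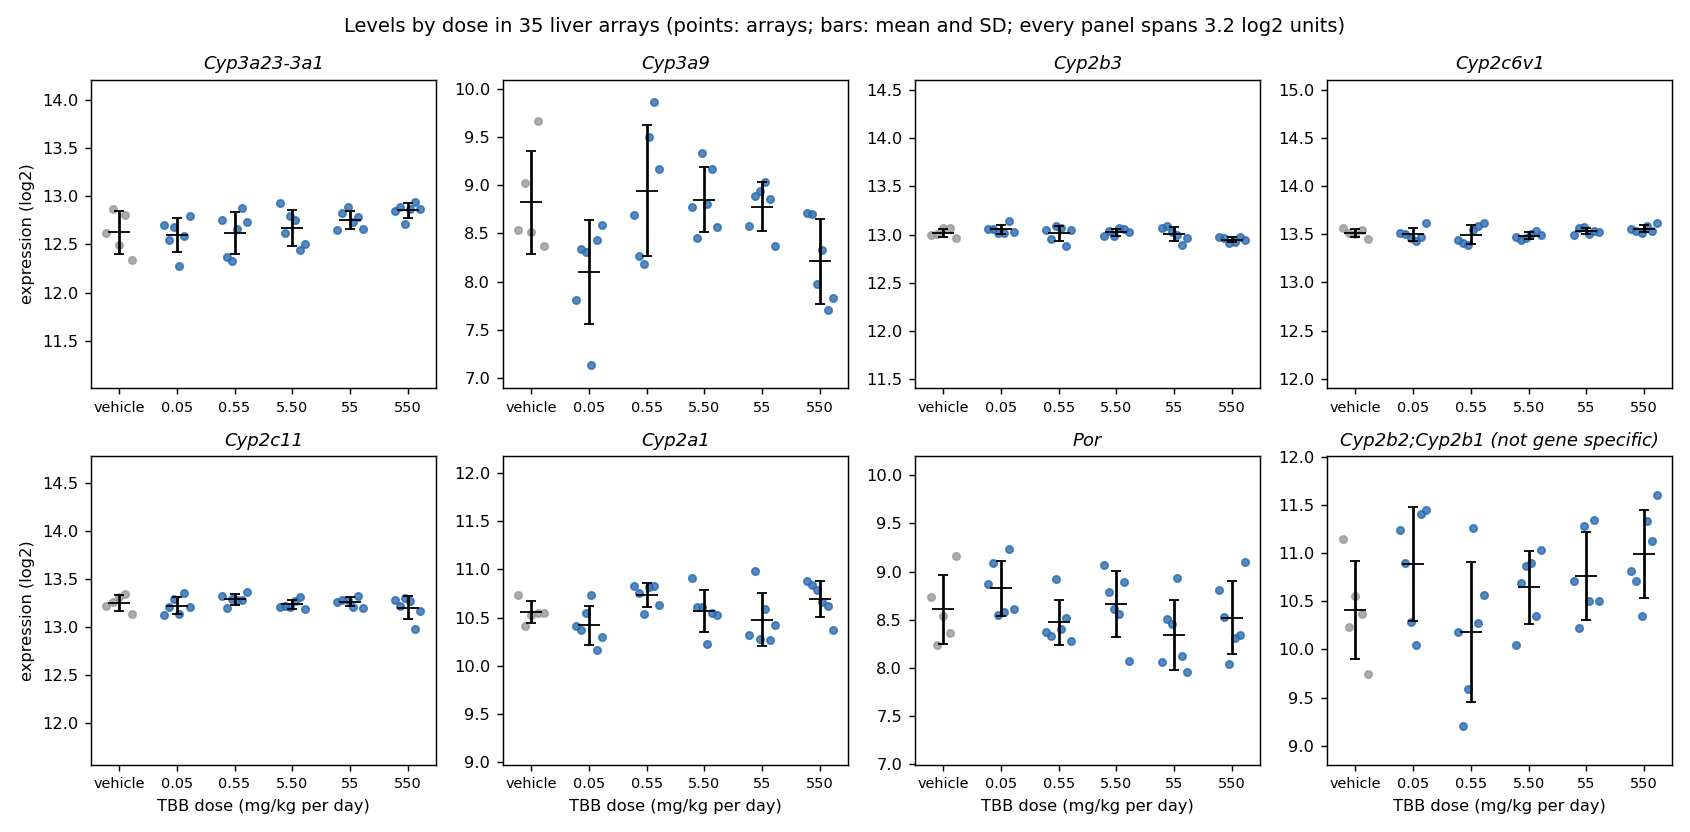
Expression (log2, vertical axis) of the 7 genes and of the shared Cyp2b2 and Cyp2b1 probe set against TBB dose (mg/kg per day). Points are arrays, and bars are the group mean and SD; every panel spans the same number of log2 units, so the wide scatter of Cyp3a9 (fold range over all arrays 6.63) can be set beside the narrow band of Cyp2b3 (1.20).

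Cyp3a23-3a1 encodes the main drug-inducible Cyp3a enzyme of rat liver, which hydroxylates steroids and many drugs. The 5 vehicle arrays read 12.62, 12.87, 12.49, 12.81 and 12.34. The arrays at 550 mg/kg ran from 12.71 through a median of 12.87 to 12.94. All 6 of these arrays were above the vehicle mean, but 2 of the vehicle arrays lay inside their range, so the groups overlapped at the top.

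The mean of Cyp3a23-3a1 was 12.63 ± 0.22 (SD, n = 5) in vehicle and 12.85 ± 0.08 (SD, n = 6) at 550 mg/kg. The difference was 0.23 ± 0.10 (SE), a 1.17-fold ratio with a 95% interval of 1.02 to 1.35, and did not pass the test (adjusted p = 0.49). Group means ran 12.60, 12.62, 12.67 and 12.76 at 0.05, 0.55, 5.50 and 55 mg/kg, so from the lowest dose upward each group mean was above the one before it. No neighbouring pair in that order had a 95% interval of the difference that left out 0. The slope was 0.049 ± 0.016 (SE) per dose step, with an adjusted p of 0.23, the smallest adjusted p of any of the 7 genes in any comparison. Its SD was also smaller at 55 mg/kg (0.09) and 550 mg/kg (0.08) than in the other 4 groups (0.18 to 0.22), a difference in spread that was not tested.

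Cyp3a9 is a Cyp3a form known for higher expression in female than in male rats. The 5 vehicle arrays read 8.53, 9.02, 8.52, 9.67 and 8.37, with 1 array well above the rest. At 0.05 mg/kg the lowest, median and highest arrays read 7.13, 8.32 and 8.59, and at 550 mg/kg they read 7.70, 8.15 and 8.71. All 6 arrays of both groups were below the vehicle mean of 8.82 ± 0.53 (SD, n = 5), yet both ranges reached above the lowest vehicle array.

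The difference of Cyp3a9 from vehicle was -0.72 ± 0.27 (SE) at 0.05 mg/kg, with an adjusted p of 0.80. The value at 550 mg/kg was -0.61 ± 0.27, with an adjusted p of 0.50. The 95% interval at 550 mg/kg ran from a ratio of 0.445 to one of 0.961. The 3 doses between gave 0.12, 0.03 and -0.04, so the low values stood at the lowest and the highest dose and not in order of dose. Group means were lowest at 0.05 mg/kg (8.10), then at 550 mg/kg (8.21), and reached 8.94 at 0.55 mg/kg. The step from 550 to 55 mg/kg, 0.57 with a 95% interval of 0.039 to 1.10, was the only step between neighbouring group means of any of the 7 genes whose interval left out 0. Its adjusted p was 0.47.

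The spread of Cyp3a9 within groups was 0.48 (SD), higher than that of 98.2% of probe sets of like mean level. With that spread a difference of 1.12 (2.17-fold) would have been needed for a call at 550 mg/kg, against 0.41 (1.33-fold) for Cyp3a23-3a1. Cyp3a2, whose promoter holds the same repeat as that of Cyp3a23-3a1, differed by -0.04 ± 0.04 (SE) at 550 mg/kg (adjusted p = 0.86). Its vehicle mean was 13.68, and whether the arrays show a change in full at so high a level was not tested. Cyp3a18, also male biased, differed by -0.003 ± 0.087 (adjusted p = 1). Cyp3a genes are close in sequence, and the probe sequences were not used here, so the part that reads from one member may have in another's value was not tested.

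**Figure D2:**
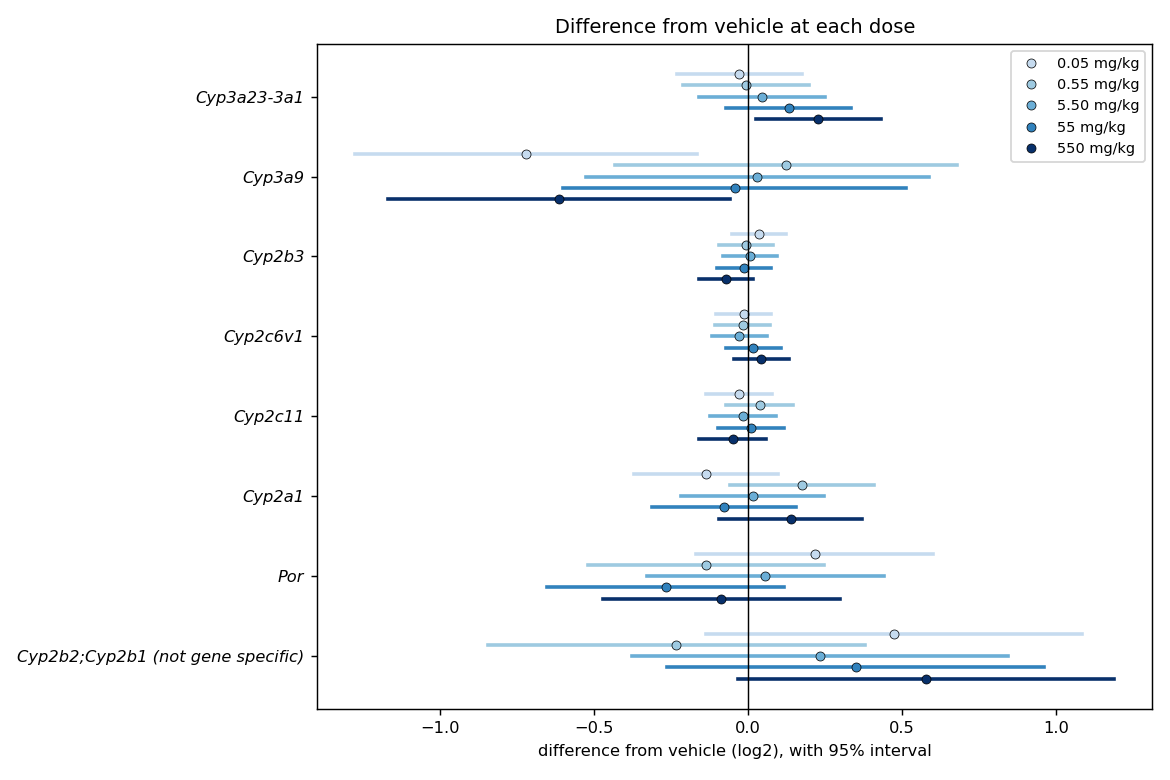
Difference from vehicle (log2, horizontal axis) at each of the 5 doses for the 7 genes and the shared Cyp2b2 and Cyp2b1 probe set; circles are estimates and lines 95% intervals from 1 fit over 35 arrays. Most lines cross 0, and those that do not are Cyp3a23-3a1 at 550 mg/kg (0.23) and Cyp3a9 at 0.05 and 550 mg/kg (-0.72 and -0.61), none of which passed after adjustment.

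Cyp2b3 is a Cyp2b form of rat liver that is expressed without an inducer and is known not to respond to phenobarbital. The 5 vehicle arrays read 12.99, 13.01, 13.06, 13.06 and 12.97. In the 550 mg/kg group the lowest, median and highest were 12.91, 12.95 and 12.98. All 6 arrays lay below the vehicle mean, and the highest of them was above the lowest vehicle array. The difference was -0.07 ± 0.04 (SE), or 0.952-fold, with a 95% interval of 0.896 to 1.01 (adjusted p = 0.70). Its slope was -0.014 ± 0.007 per dose step (adjusted p = 0.53). This gene had the smallest spread of the 7 within groups (SD 0.055), and a 1.13-fold change at 550 mg/kg would have sufficed for a call.

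Cyp2b1 and Cyp2b2 are the classical phenobarbital-inducible P450s and the usual readout of CAR in rat liver. Their shared probe set read 11.15, 10.24, 10.56, 10.37 and 9.75 in the vehicle arrays. Its 6 arrays at 550 mg/kg had a lowest value of 10.35, a median of 10.97 and a highest of 11.61, with 5 of 6 above the vehicle mean. The highest vehicle array lay above the median at 550 mg/kg, so the groups overlapped broadly.

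The shared Cyp2b2 and Cyp2b1 value was 10.41 ± 0.51 (SD, n = 5) in vehicle and 10.99 ± 0.46 (SD, n = 6) at 550 mg/kg. The difference of 0.58 ± 0.30 (SE), a 1.49-fold ratio with a 95% interval of 0.978 to 2.28, did not pass the test (adjusted p = 0.61). At 0.05, 0.55, 5.50 and 55 mg/kg the differences were 0.47, -0.23, 0.23 and 0.35, with the lowest group mean at 0.55 mg/kg (10.18) and the highest at 550 mg/kg. The probe set's spread within groups, 0.53 (SD), exceeded that of 99% of probe sets of like mean, and single arrays spanned a 5.29-fold range. A 2.34-fold change would have been needed for a call at 550 mg/kg. The value cannot be divided between Cyp2b1 and Cyp2b2.

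Cyp2c6v1 is a Cyp2c enzyme of both sexes with a modest response to phenobarbital in the rat. In vehicle it read 13.56, 13.52, 13.50, 13.54 and 13.45, and at 550 mg/kg it ran from 13.52 through a median of 13.55 to 13.62. All 6 arrays at 550 mg/kg were above the vehicle mean, by a mean of 0.04 ± 0.04 (SE), a 1.03-fold ratio with a 95% interval of 0.968 to 1.10 (adjusted p = 0.86). Its group means differed by at most 0.07, between 5.50 and 550 mg/kg.

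Cyp2c11 is the leading male-biased P450 of rat liver and hydroxylates testosterone. The vehicle arrays read 13.22, 13.26, 13.31, 13.34 and 13.13, and the arrays at 550 mg/kg ran from 12.98 through a median of 13.24 to 13.30. Of those 6 arrays, 3 were above and 3 below the vehicle mean, and 1 lay below every vehicle array. The difference was -0.05 ± 0.05 (SE), or 0.966-fold with a 95% interval of 0.896 to 1.04 (adjusted p = 0.86). The smallest changes in array value that would have been called at 550 mg/kg were 1.13-fold for Cyp2c6v1 and 1.16-fold for Cyp2c11. By vehicle mean, Cyp2c6v1, Cyp2c11, Cyp2b3 and Cyp3a23-3a1 stood at percentiles 99.9, 99.8, 99.7 and 99.4 of all probe sets. Whether the arrays show a change in full at such high levels was not tested.

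Cyp2a1 encodes a testosterone 7-alpha-hydroxylase. The vehicle arrays read 10.74, 10.42, 10.53, 10.55 and 10.55. At 550 mg/kg the lowest, median and highest arrays read 10.38, 10.73 and 10.88, so the range enclosed that of the vehicle. The difference was 0.14 ± 0.11 (SE), or 1.10-fold with a 95% interval of 0.937 to 1.29 (adjusted p = 0.81). Group means were lowest at 0.05 mg/kg (10.42) and highest at 0.55 mg/kg (10.73), with no order by dose. A probe set annotated with both Cyp2a2 and Cyp2a1 followed it over the 35 arrays (Pearson r = 0.84, given as a description of 2 probe sets that share a gene) and differed by 0.15 ± 0.07 (SE) at 550 mg/kg (adjusted p = 0.53). Cyp2a2 has a probe set of its own as well, which differed by 0.06 ± 0.06 (adjusted p = 0.85).

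Por serves all microsomal P450s, so its level bears on every enzyme above. Its main probe set read 8.73, 8.24, 8.54, 8.37 and 9.16 in the vehicle arrays. In the 550 mg/kg group they ran from 8.04 through a median of 8.44 to 9.10, with 2 of 6 above the vehicle mean. The groups covered almost the same range. The difference was -0.09 ± 0.19 (SE), or 0.942-fold with a 95% interval of 0.722 to 1.23 (adjusted p = 0.95). The lowest group mean stood at 55 mg/kg (8.34) and the highest at 0.05 mg/kg (8.83), and the 55 mg/kg group differed from vehicle by -0.27 ± 0.19. The second Por probe set gave -0.06 ± 0.16 at 550 mg/kg (adjusted p = 0.96) and tracked the main one over the arrays with r = 0.92. Its lowest and highest group means also stood at 55 and 0.05 mg/kg. Both probe sets varied widely, with an SD within groups of 0.33 for the main one (above 95.4% of probe sets of like mean), so a 1.71-fold change would have been needed for a call.

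The arrays varied within dose groups, and the 21 pairs of the 7 genes were compared for joint variation, with Benjamini-Hochberg adjustment over the pairs and permutation p-values (100000 permutations, two-sided, n = 35). Over all arrays Cyp3a23-3a1 and Cyp2c6v1 rose and fell together (Pearson r = 0.62, adjusted permutation p = 0.0023; Spearman rho = 0.58, adjusted p = 0.0082), and r was 0.51 without the 2 arrays farthest from the median. Cyp3a9 and Cyp2c11 were also related (r = 0.56, adjusted permutation p = 0.0051), although the rank correlation did not pass (rho = 0.44, adjusted p = 0.091), and r was 0.54 without 2 arrays. With array medians subtracted it did pass (rho = 0.47, adjusted permutation p = 0.044), as did that of Cyp2b3 and Cyp2c11 (rho = 0.45, adjusted p = 0.044), whose r did not (r = 0.40, adjusted p = 0.13). No other pair passed over all arrays in these 2 settings.

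With each array taken as its deviation from its own group mean, 4 pairs passed by Pearson r. This removes differences between group means, but not differences in spread between doses. Cyp3a23-3a1 and Cyp3a9 gave r = 0.63 (adjusted permutation p = 0.015), and 0.55 without the 2 arrays farthest from the median. Over all arrays the same pair gave 0.35 (adjusted p = 0.28), and 0.16 without 2 arrays. Group means of Cyp3a23-3a1 were highest at 550 mg/kg, where Cyp3a9 was low. Cyp2c6v1 was related to Cyp3a23-3a1 (r = 0.56) and to Cyp3a9 (r = 0.58), and Cyp3a9 to Cyp2c11 (r = 0.51), each with an adjusted permutation p of 0.028. By ranks none of the 4 passed, with adjusted p from 0.05 to 0.055. Por, Cyp2b3 and Cyp2a1 were in no pair that passed over these deviations.

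**Figure D3:**
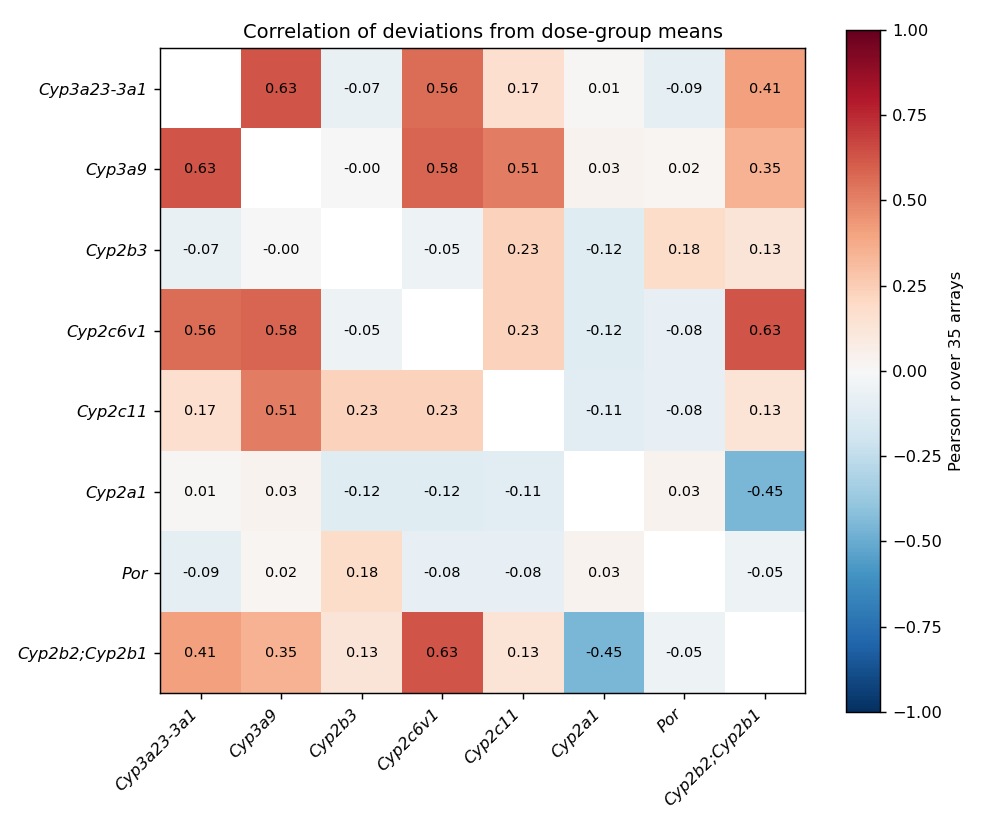
Pearson r between the deviations of each pair of genes from their dose-group means over 35 arrays, by colour and number. The 3 genes Cyp3a23-3a1, Cyp3a9 and Cyp2c6v1 form the block of high values (0.56 to 0.63), and the shared Cyp2b2 and Cyp2b1 probe set is high with Cyp2c6v1 (0.63) and negative with Cyp2a1 (-0.45).

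The shared Cyp2b2 and Cyp2b1 probe set was set against each of the 7 genes after its spread had been seen, as 7 further pairs adjusted together. Over deviations from group means it rose with Cyp2c6v1 (r = 0.63, adjusted permutation p = 0.0055, and rho = 0.63, adjusted p = 0.0024). Without 2 arrays that r was 0.58. It ran opposite to Cyp2a1 (r = -0.45, adjusted permutation p = 0.022, and rho = -0.48, adjusted p = 0.024), and r was -0.56 without 2 arrays. These values pool the groups, and single groups can differ. In vehicle, replicate 1 was the highest array for both Cyp2a1 (10.74) and the shared probe set (11.15). With Cyp3a23-3a1 the shared probe set gave r = 0.41 over deviations (adjusted permutation p = 0.077). Over all arrays that pair gave 0.46 (adjusted permutation p = 0.017), which fell to 0.28 without 2 arrays. These relations are among arrays that share liver lobe, processing and normalisation, whose part in them was not tested.

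**Figure D4:**
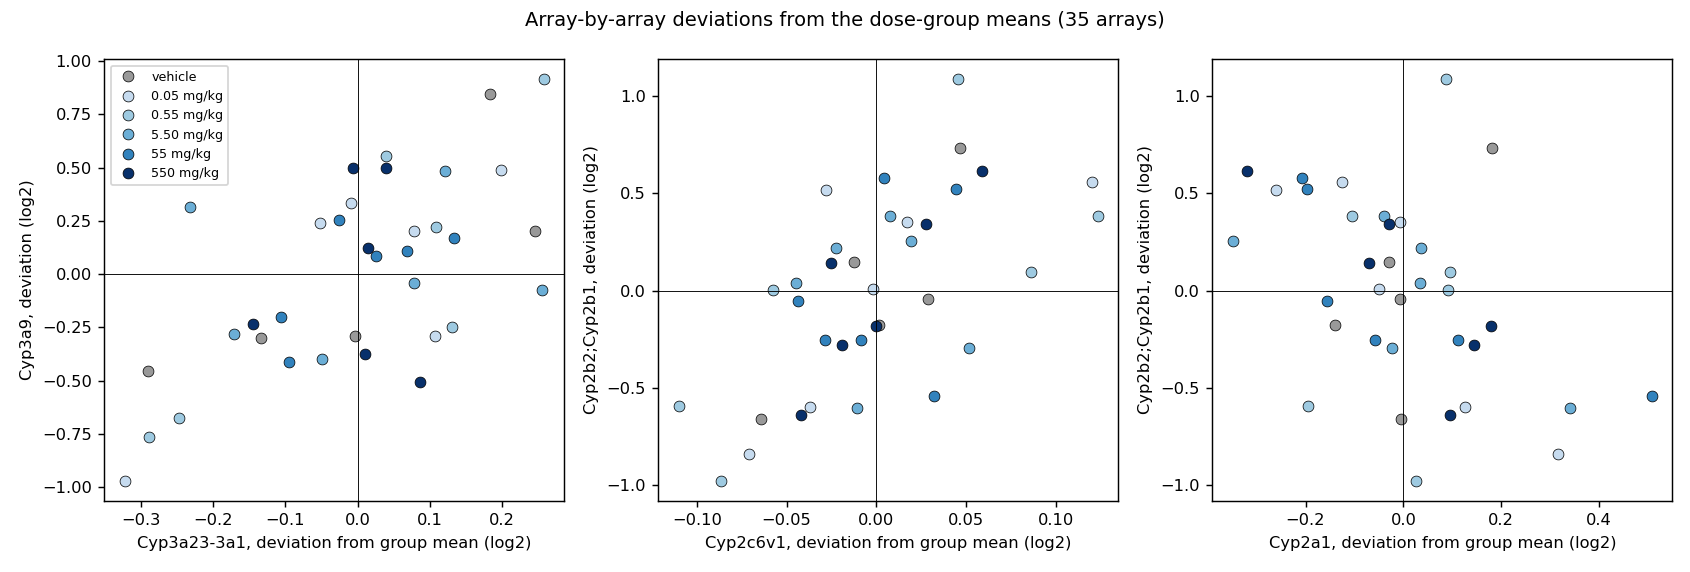
Deviations from dose-group means (log2, both axes) for Cyp3a23-3a1 and Cyp3a9, for Cyp2c6v1 and the shared Cyp2b2 and Cyp2b1 probe set, and for Cyp2a1 and that probe set; each point is 1 of 35 arrays, coloured by dose. Over all arrays the first and second panels slope upward (r = 0.63 in each) and the third slopes downward (r = -0.45). These r values pool the dose groups, and slopes within single groups were not tested.

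Over deviations from group means, the genes most like each of the 7 among the 14217 genes were found by Pearson r over 35 arrays, as a description. For Cyp3a23-3a1 these were Hibch (r = 0.72) and Pcsk1n (r = 0.69). For Cyp3a9 they were Cyp26b1 and Pcp4 (r = 0.72 each). Cyp2b3 was nearest to Kdm5a (r = 0.74) and Rngtt (r = 0.71), and Cyp2c6v1 to Psmd14 (r = 0.73) and Mtch2 (r = 0.72). Cyp2c11 was nearest to Gstm2 (r = 0.79) and Oat (r = 0.76). Cyp2a1 had the least close neighbours, Slc38a7 (r = 0.64) and Zfp157 (r = 0.62). Por was nearest to Dbp (r = 0.80) and Rhbdd2 (r = 0.79). The highest of 14217 values is large by choice alone, so these r values have no test.

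The receptors and their partners, a list that includes CAR and PXR, were read on 1 probe set per gene. Of 12 measured, 0 were called at 550 mg/kg, against 0.83% of 14217 genes, and 2 had an unadjusted p under 0.05, a rule that passed 8.67% of all probe sets. These were Rxra, the shared partner of CAR and PXR (0.24 ± 0.09 (SE), adjusted p = 0.40), and Rxrb (-0.18 ± 0.07, adjusted p = 0.43). Nr1i3 itself differed by 0.11 ± 0.20 (adjusted p = 0.94) and Nr1i2 by 0.10 ± 0.09 (adjusted p = 0.81).

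Of 21 other known CAR and PXR targets listed, 13 were measured, and at 550 mg/kg 3 rose, 1 fell and 9 did not pass. Over all 14217 genes 84 were called higher and 34 lower (0.83%). The 13 targets had a median difference of -0.003, against -0.008 over all genes. Abcc3, a basolateral efflux pump of hepatocytes, rose from 5.10 ± 0.25 (SD, n = 5) to 6.16 ± 0.57 (SD, n = 6). The difference was 1.06 ± 0.20 (SE), or 2.08-fold (adjusted p = 0.0047 by limma). Its lowest array at 550 mg/kg (5.25) lay below its highest vehicle array (5.49), so the groups overlapped. Aldh1a1, a retinaldehyde dehydrogenase, rose 1.56-fold (adjusted p = 0.016) and Ces2c, a carboxylesterase, 1.30-fold (adjusted p = 0.026). Slco1a4, an uptake transporter that PXR activators are known to raise, fell by 0.30 on the log2 scale (adjusted p = 0.049). Aldh1a1, Ces2c and Abcc3 are also known targets of other xenobiotic receptors. Which receptor, if any, acted on these genes was not tested.

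Some of these calls were lost in other fits. With only the vehicle and 550 mg/kg arrays fitted, Abcc3, Ces2c and Slco1a4 were no longer called (adjusted p = 0.11, 0.16 and 0.15). Without vehicle replicate 3, Aldh1a1 had an adjusted p of 0.086 and Ces2c of 0.15. The Ces2c call was lost in 5 of 11 fits that each left out an array, and the Slco1a4 call in 10 of 11. In 550 against 55 mg/kg the targets called were Abcc3, Ces2c and Ugt2b1, a glucuronosyltransferase (1.30-fold, adjusted p = 0.026), all higher at 550 mg/kg. In that comparison 1.14% of all genes were called, 136 higher and 26 lower, so higher was also the general direction. At 55 mg/kg against vehicle 0 of the 13 were called.

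**Figure D5:**
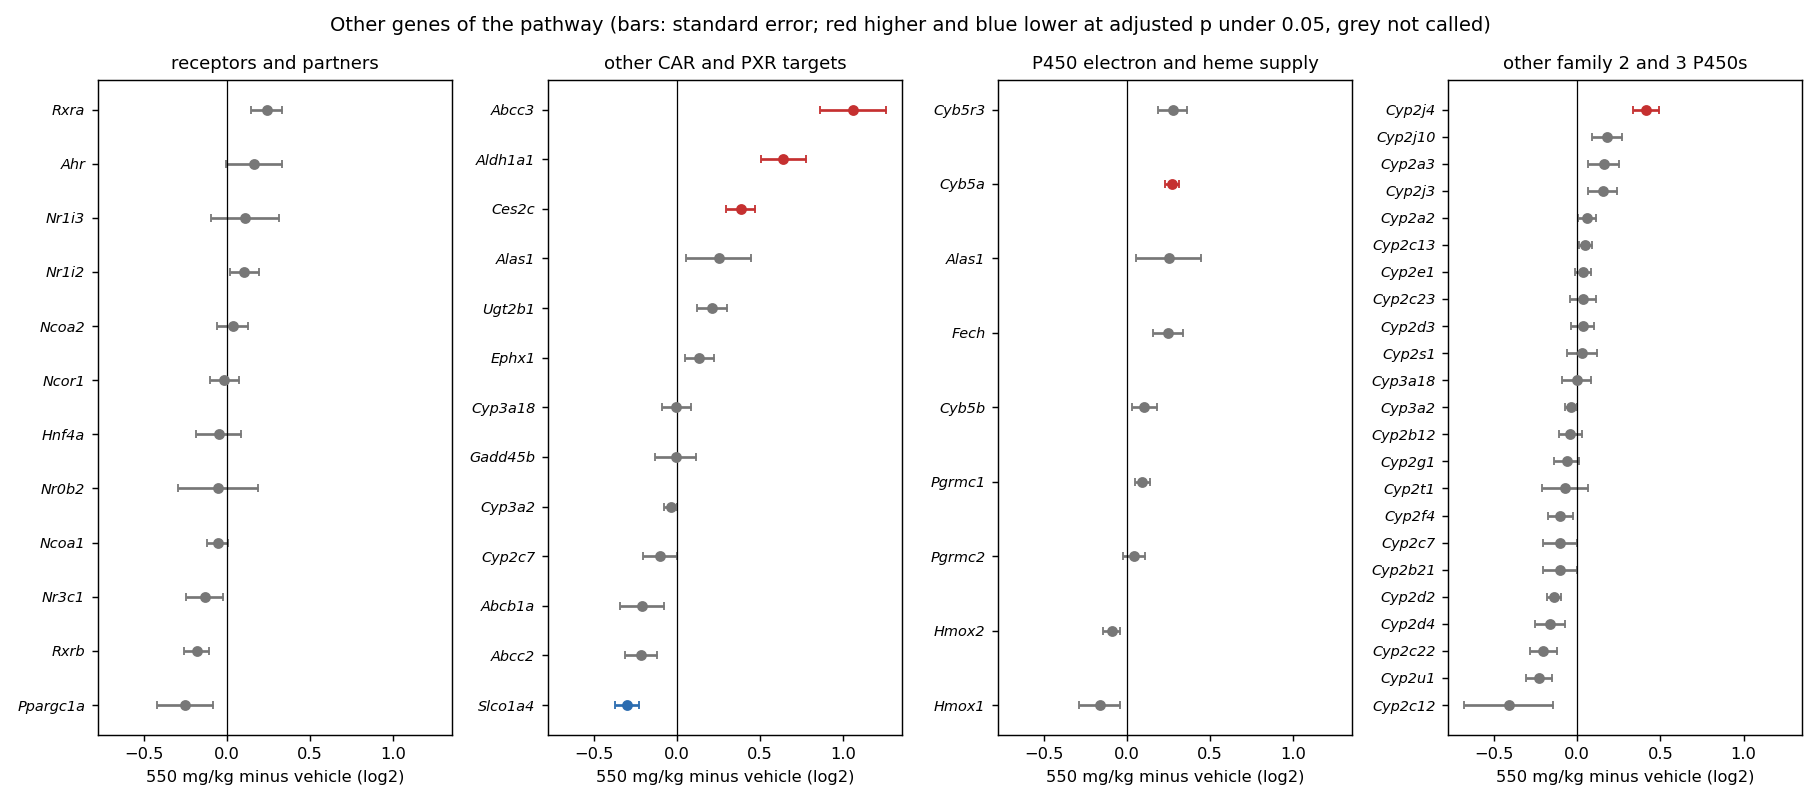
Difference of 550 mg/kg from vehicle (log2, horizontal axis) with its standard error for the measured genes of 4 lists, 1 probe set per gene; red and blue mark genes higher and lower at adjusted p under 0.05 and grey those not called. The receptors hold no coloured point, the other CAR and PXR targets hold 4, from Abcc3 (1.06) to Slco1a4 (-0.30), and the last 2 panels hold 1 each, Cyb5a (0.27) and Cyp2j4 (0.41).

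A list of 9 genes held electron partners of P450s and heme enzymes, among them Hmox1 and Hmox2, which break heme down. Of these 9, 1 was called at 550 mg/kg, against 0.83% of all genes. It was Cyb5a, which encodes cytochrome b5, the second electron donor beside POR. Its 5 vehicle arrays ran from 13.23 to 13.36 and its 6 arrays at 550 mg/kg from 13.49 to 13.68, so the groups did not overlap. The mean rose by 0.27 ± 0.04 (SE), a 1.21-fold change (adjusted p = 0.00022), from 13.31 ± 0.06 (SD, n = 5) to 13.58 ± 0.08 (SD, n = 6). Group means of Cyb5a ran 13.31, 13.29, 13.34 and 13.40 from 0.05 to 55 mg/kg, and its slope passed (0.049 ± 0.009 per dose step, adjusted p = 0.0056). The call at 550 mg/kg was lost when only the vehicle and 550 mg/kg arrays were fitted (adjusted p = 0.10). Cyb5r3, the reductase of cytochrome b5, differed by 0.27 ± 0.09 (adjusted p = 0.22), and Por, in contrast, by -0.09 ± 0.19. Alas1, which starts heme synthesis and is itself a CAR and PXR target, differed by 0.25 ± 0.20 (adjusted p = 0.79), and Fech, which inserts the iron, by 0.25 ± 0.09 (adjusted p = 0.33). The difference between Cyb5a and Por was not tested.

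Among 23 measured of 30 other P450s of families 2 and 3, 1 rose at 550 mg/kg, beside 0.83% of all genes called in either direction. It was Cyp2j4, a P450 of the fatty acid epoxygenase subfamily. Its vehicle arrays ran from 9.19 to 9.39 and its arrays at 550 mg/kg from 9.62 to 9.76, without overlap. The difference was 0.41 ± 0.08 (SE), or 1.33-fold (adjusted p = 0.0052). The means at the 4 lower doses lay between 9.27 and 9.32, beside 9.28 in vehicle. The call held in each alternative fit, with adjusted p from 0.0022 to 0.029. The median of the 23 was -0.04, against -0.008 over all genes.

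Cyp2c11 belongs to a set of sex-biased liver P450s, and the others were read beside it. With 0.83% of all genes called at 550 mg/kg, lists this short would seldom hold a call. Of 5 further male-biased genes 0 were called, with a median of 0.05 and Hsd3b5, a male-specific steroid reductase, at 0.12 ± 0.07 (adjusted p = 0.71). Of 3 female-biased genes 0 were called, and Cyp2c12, the female-specific counterpart of Cyp2c11, differed by -0.41 ± 0.27 (adjusted p = 0.72). Its probe set read 11.35 on average in the vehicle arrays, although the rats were male. The part that other Cyp2c genes may have in that value was not tested. Cyp2c12 varied between arrays about as widely as Cyp3a9, with an SD of 0.59 in vehicle and 0.62 at 550 mg/kg.

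The 7 genes are expressed chiefly in hepatocytes, and in bulk liver fewer cells of a type and less RNA per cell cannot be told apart. Of 9 measured hepatocyte markers 1 was called at 550 mg/kg, Apoa1, which fell by 0.51 on the log2 scale, beside 0.83% of all genes called, and the median difference was -0.07. Their mean level per array ran from 13.62 to 13.70 in vehicle and from 13.52 to 13.64 at 550 mg/kg. All 7 measured Kupffer cell markers had negative differences, with none called and a median of -0.22, and their mean level ran from 8.78 to 9.12 in vehicle and from 8.39 to 9.06 at 550 mg/kg. This was not particular to the top dose. Their median differences from vehicle at 0.05, 0.55, 5.50 and 55 mg/kg were -0.12, -0.25, -0.19 and -0.07. None of the 6 endothelial, 7 stellate cell, 4 cholangiocyte or 5 lymphocyte markers was called. Differences at 550 mg/kg were negative for all 6 endothelial markers, and positive for 1 marker in each of the other 3 lists. The part of cell makeup in the values of the 7 genes was not tested.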

How the data were processed

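Liver RNA of 35 samples was hybridised to Affymetrix 3' arrays, and samples were grouped by dose from their titles. The authors deposited log2 expression values summarised by probe set. The submitters' processing notes name RMA and affy, with versions, filters and chip definition not given in the sources used here. RMA equalises the distributions of the arrays, so a shift shared by most genes cannot be seen, and it flattens folds near background.

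Of 31099 probe sets, 57 controls were left out. The platform annotation paired 20826 probe sets with a single symbol, 436 with several and 9780 with none, and none was named from several symbols. All 7 genes were matched to RefSeq (GRCr8) by Entrez identifier. The design text compares each dose with vehicle at a false discovery rate under 5%, with a package not used here. One limma 3.58.1 fit (R 4.3.3; data.table version 1.17.8) with a mean per group over 35 arrays gave all comparisons, two-sided, with eBayes and Benjamini-Hochberg adjustment over 31042 probe sets. It was tested on simulated data. Sizes needed for a call are the adjusted threshold of each comparison times the standard error. Spread percentiles used probe sets within 0.5 log2 of a gene's mean. Figures used Python 3.11.15 and matplotlib 3.10.9; promoter windows were aligned with Biopython 1.88.

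The genes and lists were chosen with earlier results of these data known. Named were all 7 genes, shared Cyp2b or Cyp3a probe sets, up to 4 called genes per list or else the one with the smallest p, and the 2 genes most like each member. Other genes named were chosen after their values were seen. Some genes stand on several lists. Alternatives were array medians, cyclic loess, the 40% dimmest probe sets left out, eBayes with trend and robust settings, array weights, only the groups compared, the replicate number as a block, the mean of a gene's probe sets, and each array left out in turn.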

Additional observations from a re-analysis of the deposited data

Results flagged for a closer look

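Por at 0.55 mg/kg had 1 array far from the others. Replicate 3 read 8.93 on the main Por probe set, while the other 5 arrays ran from 8.28 to 8.52, and its gap to the nearest array was 0.627 of the whole range of the group. Of 54 groups of arrays examined this way for the 7 genes and the shared probe sets, 1 stood out, and chance alone sets apart about 1 in 20 groups.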

How the results depend on the processing

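The count of 0 of the 7 genes called was the same in each comparison under each alternative run, and no adjusted p of a gene fell under 0.05. The genes' differences and slopes were counted together with their any-dose tests, which have no sign to turn and count as unturned. Leaving out 1 array turned the sign in 40 fits and not in 583. The other alternatives turned it in 3 and not in 431. No turned value was one that had passed a test, and the cause was not tested.

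With array weights Cyp3a23-3a1 at 0.55 mg/kg gave 0.0018, Cyp3a9 at 5.50 mg/kg -0.030 and Cyp2a1 at 5.50 mg/kg -0.042. Over fits that each left out 1 array, the differences that turned had these ranges. At 0.05 mg/kg Cyp3a23-3a1 ran from -0.10 to 0.036. At 0.55 mg/kg Cyp3a23-3a1 ran from -0.080 to 0.054, Cyp3a9 from -0.059 to 0.34, Cyp2b3 from -0.022 to 0.020, Cyp2c6v1 from -0.042 to 0.0044 and Por from -0.23 to 0.0020. At 5.50 mg/kg Cyp3a23-3a1 ran from -0.026 to 0.11, Cyp3a9 from -0.083 to 0.24, Cyp2b3 from -0.0065 to 0.018, Cyp2c11 from -0.047 to 0.0056, Cyp2a1 from -0.053 to 0.085 and Por from -0.035 to 0.19. At 55 mg/kg Cyp3a9 ran from -0.16 to 0.17, Cyp2b3 from -0.029 to 0.011 and Cyp2c11 from -0.021 to 0.031. At 550 mg/kg Por ran from -0.20 to 0.051 and its second probe set from -0.13 to 0.063. The slope of Cyp2c11 ran from -0.0091 to 0.0013 when a vehicle or 550 mg/kg array was left out.

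By Pearson r the number of related pairs was 2 over all arrays, with array medians subtracted and under cyclic loess, and 4 over deviations from group means. By Spearman rho it was 1, 3, 0 and 0 in the same order. Weak correlations changed sign: Cyp3a23-3a1 with Cyp2c11 gave -0.044 under cyclic loess, Cyp3a9 with Cyp2b3 gave -0.0033 over deviations and -0.018 under cyclic loess, Cyp3a9 with Por 0.016 over deviations and Cyp2a1 with Por 0.032 over deviations.

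The replicate numbers did not pair the arrays (mean correlation of same-numbered arrays from -0.06 to 0.04). With the replicate block, Cyp3a23-3a1 at 550 mg/kg gave 0.23 (adjusted p = 0.54) and Cyp3a9 -0.60 (adjusted p = 0.56) by limma, and 115 probe sets were called in place of 155. The list counts and the calls of other genes were rerun as alternatives chosen after seeing the data. Of the other CAR and PXR targets 4 were called, against 2 with the replicate block, 1 when only the 2 groups compared were fitted, and 2 to 3 when an array was left out. With only 2 groups fitted, Cyb5a was no longer called and its list held 0 calls, and Abcc3 had an adjusted p of 0.11.

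Over all probe sets, the 155 calls at 550 mg/kg became 41 with only 2 groups fitted and 77 to 142 without 1 array, the fewest without vehicle replicate 3. The 213 calls of 550 against 55 mg/kg became 76 and 327 (array weights), and 123 to 197 without 1 array. The 53 slope calls became 93 (cyclic loess, and trend and robust settings), 112 (dim probe sets left out) and 141 (array weights). They became 20 to 104 without 1 vehicle or 550 mg/kg array. The 230 calls for any dose became 383 with array weights and 128 to 239 without 1 vehicle or 550 mg/kg array. At 5.50 mg/kg 1 probe set was called under cyclic loess. The spread of Cyp3a9, Por and the shared Cyp2b probe set limits what these arrays can detect to changes near or above the sizes given with each gene.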
